A study of Mus musculus with 12 samples.

Results

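The comparison described here sets the UPBIG alveolar macrophages against the DOWN alveolar macrophages of bleomycin-treated mice. Its members were taken by sample title: the 4 libraries titled UPBIG and the 4 titled DOWN, 8 of the 12 libraries of the series, with every gene that could be tested. All cells came from bronchoalveolar lavage fluid 14 days after bleomycin, which damages the alveolar lining and serves to model pulmonary fibrosis, so both groups carry that treatment and neither is an untreated control. The lavage cells were passed through a size filter that enriched or depleted border-associated alveolar macrophages. They were then sorted by side scatter and by the signal of BODIPY, a neutral lipid stain. The labels do not state which fraction or sorting gate each title stands for, and give no strain, sex or age. Whether replicates are separate animals is not stated either, and the p-values below therefore measure only the spread between these libraries, which may be technical.

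Alveolar macrophages live in the air spaces, where they clear surfactant, inhaled particles and dying cells. They take up iron from engulfed red cells and debris through transferrin and haem, store it in ferritin and release it through ferroportin. Their activity is balanced by receptors for antibody, complement, chemokines and lipid mediators, some of which activate the cell and others of which restrain it. The genes below were grouped by such roles. Sterol, liver X receptor, fatty acid oxidation, MHC class II and monocyte genes were set aside. For the choice of the largest changes, the markers of cell types and a further list of single genes were set aside as well, with Cxcr1 and Ccr7 on the latter and Cxcr2 a marker.

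Short stretches from 130 to 11 bases before the RefSeq start of 4 genes are printed because the letters they hold recur in the comparison of promoters at the end. Fcgr4 and Slfn1 hold the core of a PU.1 site, and the former rose while the latter fell. Rufy4 and Mgst2, which both rose, hold an AP-1 site. The capitals mark these motifs and any CCAAT box, 5′ to 3′ on the gene's own strand, from RefSeq's GRCm38.p6 table.
Fcgr4, chr1:171018796-171018915, plus strand: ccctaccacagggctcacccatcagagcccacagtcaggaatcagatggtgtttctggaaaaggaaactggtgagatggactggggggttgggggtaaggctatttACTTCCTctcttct
Slfn1, chr11:83116690-83116809, plus strand: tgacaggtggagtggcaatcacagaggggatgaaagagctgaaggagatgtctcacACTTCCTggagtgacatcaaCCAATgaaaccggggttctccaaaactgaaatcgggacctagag
Rufy4, chr1:74125411-74125530, plus strand: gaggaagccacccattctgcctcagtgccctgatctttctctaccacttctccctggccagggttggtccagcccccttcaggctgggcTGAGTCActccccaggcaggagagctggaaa
Mgst2, chr3:51661049-51661168, plus strand: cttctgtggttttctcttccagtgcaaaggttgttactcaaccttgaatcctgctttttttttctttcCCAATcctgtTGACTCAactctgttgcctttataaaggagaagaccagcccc
These stretches overlap no annotated exon or UTR of the mouse annotation used here (GENCODE M21).

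The 8 libraries held 17109669 to 21642914 expected read counts. Spearman correlations over genes were 0.962 to 0.975 within UPBIG, 0.963 to 0.975 within DOWN and 0.93 to 0.952 between the groups. Of the 14 listed markers of alveolar macrophages, Lyz2, Chil3 and Mrc1 were abundant in every library. Others were scarce, such as Krt79 at 0.481 to 4.56 and Fabp1 at 2.36 to 10.45 CPM (defined below) in DOWN. In all, 7 of the 14 were called higher in UPBIG and none lower, against 9.03% and 8.48% of all tested genes. The 10 most abundant genes took 36.4% to 37.5% of UPBIG counts and 28.9% to 32.3% of DOWN counts. Levels are CPM, read counts scaled to a fixed library total and with TMM, a method that assumes most genes do not change, and each rise or fall is therefore relative to the bulk of genes. With library totals alone the median log2 fold change of all genes moved from -0.03 to -0.36, and 518 genes were called higher and 3237 lower.

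UPBIG and DOWN macrophages differed across many functions, and the changes ran both ways. Of 12625 genes tested, 2210 differed by edgeR's quasi-likelihood test with Benjamini-Hochberg adjustment at 0.05, which is 17.5% of the genes tested. Of these, 1140 (9.03%) rose and 1070 (8.48%) fell in UPBIG. The median size of the called changes was 0.80 on the log2 scale among rises and 0.93 among falls, and 912 genes (7.22%) changed by more than 2-fold. The libraries of the groups did not overlap for 2697 genes (21.4%), with UPBIG higher for 11.0% and lower for 10.3% of those tested. When a change above 1.5-fold was itself required, 301 genes rose and 296 fell. Below, each adjusted p is this edgeR value, and an error after a log2 fold change is its standard error. Every count of called list members is to be read against the 9.03% higher and 8.48% lower of all genes tested. A count near these shares is no result about its list.

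**Figure D1:**
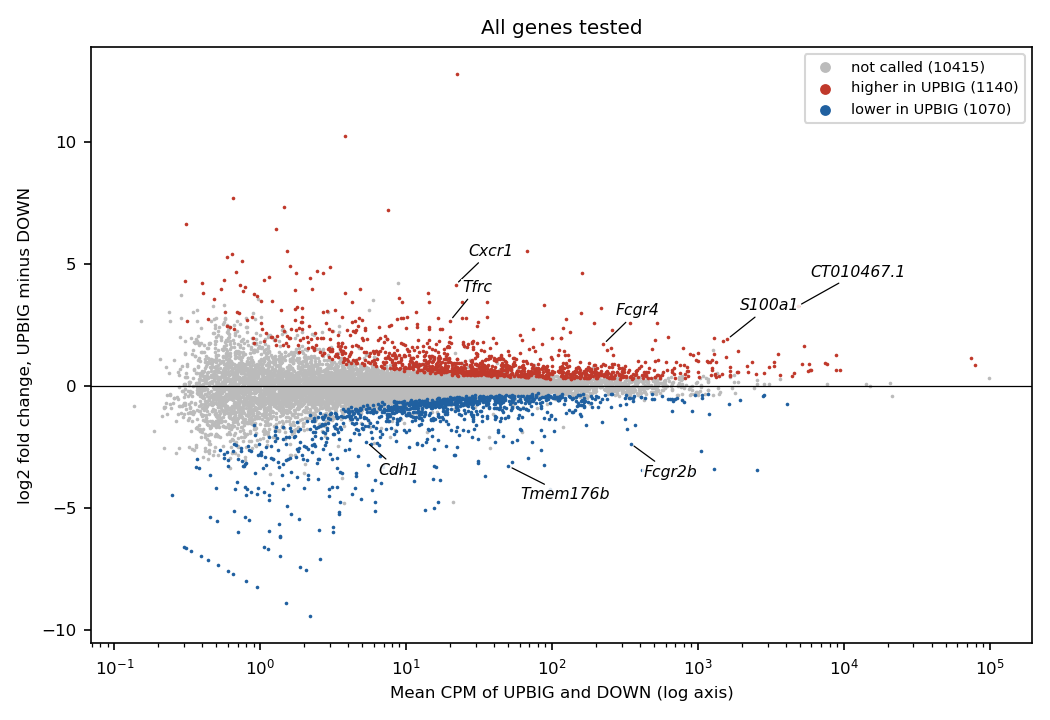
Each point is a gene, with the mean CPM of UPBIG and DOWN on a log axis against the log2 fold change (UPBIG minus DOWN). Red points are the 1140 genes called higher, blue points the 1070 called lower, and grey points were not called. Fitted changes at the far edges belong to genes near 0 counts in 1 group and depend on the prior count.

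The largest rises outside the set-aside lists are given first. Awat1, an acyltransferase that makes wax esters, stood at 29.1, 26.7, 17.3 and 31.9 CPM in the UPBIG libraries and at 3.25, 1.83, 2.43 and 2.17 in the DOWN libraries, a log2 fold change of 3.43 ± 0.35 (adjusted p = 1.99e-06). Rgcc, a regulator of cell cycle and of complement responses, stood at 249 to 332 CPM in UPBIG and 19.4 to 55.2 in DOWN, at 2.99 ± 0.34. For both genes the lowest UPBIG library lay far above the highest DOWN library, though the choice of the largest changes required that the groups not overlap. Cd200, the ligand of an inhibitory myeloid receptor, stood at 54.2, 69.9, 70.5 and 57.4 CPM in UPBIG and 5.84, 11.8, 11.9 and 6.27 in DOWN. Its log2 fold change was 2.82 ± 0.21 (adjusted p = 2.48e-08). Plpp3, a phosphatase that degrades lysophosphatidic acid and related lipids, rose by 2.79 ± 0.23 and the scavenger receptor gene Colec12 by 2.48 ± 0.20. Also among the 15 were Wfdc10, Mamdc2, Rufy4 and the Ly49 family gene Klra17, at 3.03, 2.81, 2.80 and 2.77. Lipf, a lipase, rose by 3.46 ± 0.54, with 9.16 to 25.4 CPM in UPBIG and 0.563 to 3.16 in DOWN, and by 4.08 without DOWN replicate 4. Pla2g2d, a secreted phospholipase, rose by 2.85 ± 0.49 and by 3.64 without DOWN replicate 3.

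Lars2, the mitochondrial leucyl-tRNA synthetase, also belonged to the 15 largest rises but was uneven between libraries. It stood at 829, 268, 266 and 191 CPM in the UPBIG libraries and 37.7, 47.6, 39.9 and 44.2 in the DOWN libraries, a log2 fold change of 3.20 ± 0.64 (adjusted p = 0.00775) that became 2.51 without UPBIG replicate 1. CT010467.1, a transcript resembling ribosomal RNA, took 1.26%, 0.591%, 0.664% and 0.537% of the counts of the same UPBIG libraries, and 0.0873% to 0.107% in DOWN. UPBIG replicate 1 was highest in both. Mitochondrially encoded transcripts took 4.05% to 5.19% in UPBIG and 2.49% to 3.15% in DOWN. The part of these transcripts in the Lars2 value was not tested.

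The largest falls included surface receptors, transcription cofactors and a calcium-binding protein. S100a4, an S100 protein tied to cell motility, stood at 16.9, 12.1, 24.9 and 12.6 CPM in UPBIG and at 160, 142, 139 and 194 in DOWN, for a log2 change of -3.25 ± 0.49 (adjusted p = 0.00144). Tmem176b, a membrane protein of the endosomal pathway, stood at 10.8, 8.37, 7.32 and 10.9 CPM in UPBIG and at 83.8, 86.3, 114 and 79.7 in DOWN, at -3.28 ± 0.19 (adjusted p = 8.29e-10). All DOWN libraries lay above all UPBIG libraries for both genes, which the choice of the largest changes required. Its neighbour Tmem176a, on the opposite strand of chromosome 6, fell by 2.82 ± 0.26 on the log2 scale; the pair share 81 exon bases, where reads cannot be told apart since no source states whether counting used strand. Plbd1, a phospholipase-like protein of granules, fell by 3.27 ± 0.44. A pair of transcriptional regulators of blood cells fell with them: the corepressor Cbfa2t3 by 2.84 ± 0.31, and Nfe2 by 2.51 ± 0.22, from 16.4 to 19.3 CPM in DOWN to 2.43 to 4.34 in UPBIG. Smim5 and Spink2 stood at -3.32 and -2.44. Stab1, a scavenger receptor, stood at -2.35 ± 0.37 and at -3.05 without UPBIG replicate 2, the UPBIG library with the highest level, 8.31 CPM, where the rest held 1.81 to 3.07.

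**Figure D2:**
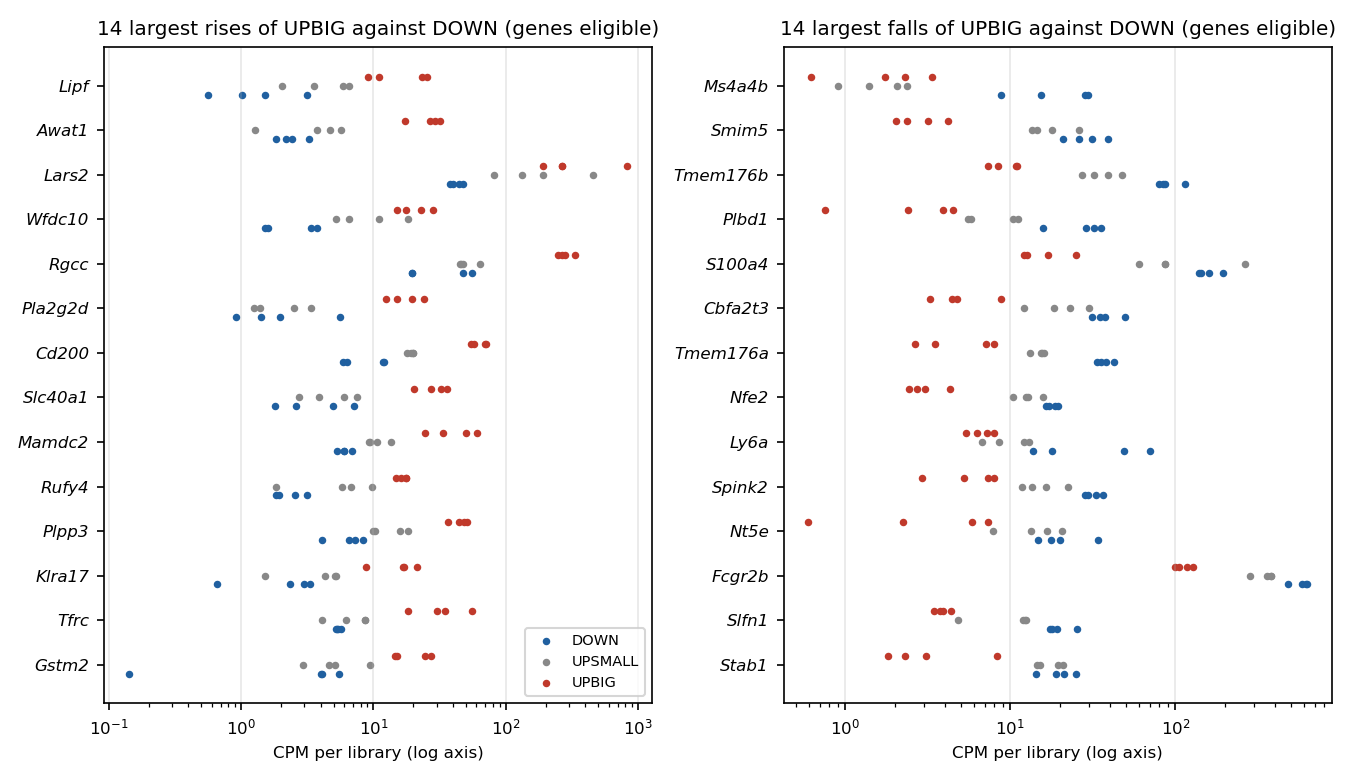
Each row is a gene and each point a library, with CPM on a log axis, for the 14 largest rises (left) and 14 largest falls (right) outside the set-aside lists, cell type markers and further single genes; Cxcr1 and Cxcr2, with larger rises, are therefore not drawn. Red UPBIG points and blue DOWN points do not overlap in any row, which the choice of these genes required. The mean CPM of UPSMALL (grey) lay between the means of UPBIG and DOWN for most genes drawn. Single grey points reach into or past the range of UPBIG or DOWN in many rows, such as Awat1, Lars2 and S100a4.

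Several of the largest falls were genes that lymphocytes and dendritic cells also express, and markers of these cells moved the same way. In bulk libraries, fewer cells of a type and less RNA per cell cannot be told apart. Ms4a4b, a membrane gene of T cells, stood at 0.623, 1.73, 2.29 and 3.34 CPM in UPBIG and at 28.4, 8.76, 29.7 and 15.3 in DOWN. Ly6a stood at 5.42 to 7.91 CPM in UPBIG and at 48.6, 17.8, 70.3 and 13.8 in DOWN. The chemokine receptor Cxcr6 stood at 0.125 to 0.879 CPM in UPBIG and at 12.2, 3.32, 23.8 and 7.64 in DOWN. DOWN replicates 1 and 3 were highest for all of these genes. The T cell gene Cd3d stood at 17.4, 6.36, 14.4 and 8.06 CPM in the same DOWN libraries and at 0.499 to 1.14 in UPBIG. Their log2 fold changes were -3.37 ± 0.48 for Ms4a4b, -2.48 ± 0.48 for Ly6a and -4.75 ± 0.93 for Cxcr6. Cxcr6 moved to -5.38 without UPBIG replicate 3 and to -4.13 without DOWN replicate 3, and its call ended with limma-voom (adjusted p = 0.0802).

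Of the T and NK cell markers, 10 of 13 tested fell and none rose (median log2 fold change -3.85). Their summed level ranged from 89.3 to 158 CPM in UPBIG and from 83.2 to 209 in DOWN, with Cd2 the largest part of it in UPBIG. Cd2 stood at 78.8 to 125 CPM in UPBIG and 29.6 to 84.1 in DOWN and was not called (adjusted p = 0.0771). Of the dendritic cell markers, 9 of 12 fell and none rose (median -4.30), with summed levels of 69.1 to 108 CPM in UPBIG and 122 to 210 in DOWN. Irf8 was the largest part of that sum in every UPBIG library, at 55.0 to 95.95 CPM, and stood at 55.3 to 76.8 in DOWN. The sums therefore understate the falls of the other dendritic cell markers. Other genes shared with these cells that fell were the activating receptor Klrk1 (-3.24), the oxysterol receptor Gpr183 (-3.33) and the integrin chains Itgb7 (-4.49) and Itgae (-3.82, and -4.48 without UPBIG replicate 1). P2ry10, a receptor for lysophospholipids, stood at -4.26 (-4.88 without UPBIG replicate 1). Nt5e, the ectoenzyme that makes adenosine, stood at -2.42 ± 0.59, and its call ended when the filter on low counts was dropped (adjusted p = 0.0502). The part of such cells in these falls was not tested.

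The iron transport genes Slc40a1 and Tfrc were among the 15 largest rises chosen. Slc40a1, which encodes the iron exporter ferroportin, stood at 36.1, 27.0, 20.1 and 32.5 CPM in UPBIG and at 1.82, 7.12, 4.97 and 2.59 in DOWN, for a log2 change of 2.81 ± 0.40 (adjusted p = 0.000242). Tfrc, the transferrin receptor that brings iron into the cell, stood at 18.3, 55.2, 34.6 and 30.0 CPM in UPBIG and at 5.19, 5.73, 5.32 and 5.38 in DOWN, at 2.67 ± 0.29 (adjusted p = 4.22e-06). The importer and the exporter of iron thus rose in the same libraries, Tfrc most in UPBIG replicate 2 and Slc40a1 most in UPBIG replicate 1. UPSMALL stood at 5.04 CPM for Slc40a1 and 6.89 for Tfrc, close to DOWN. Slc39a2, a zinc importer, stood at 48.4, 47.6, 65.3 and 47.6 CPM in UPBIG against 14.3, 16.2, 23.9 and 6.04 in DOWN, at 1.79 ± 0.32.

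In all, 6 of 22 tested metal genes rose and 1 fell, with a median log2 fold change of 0.22 (-0.10 when scaled to library totals). The background was 9.03% called higher and 8.48% called lower. Hmox1, the enzyme that frees iron from haem, rose by 0.90 ± 0.15, and Slc11a1, which moves iron out of the phagosome, by 0.88 ± 0.19. Slc39a1, another zinc importer, was called at 0.60 ± 0.19, but not with library totals alone, nor without UPBIG replicate 1 or 3 or DOWN replicate 2 or 3 (adjusted p up to 0.0944). The fall was Slc30a4, a zinc exporter, at -1.37 ± 0.35. Outside this list, Ncoa4, the receptor that delivers ferritin to autophagosomes, stood at 506, 523, 485 and 548 CPM in UPBIG and at 303, 302, 278 and 289 in DOWN, at 0.82 ± 0.10 (adjusted p = 7.17e-06).

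**Figure D3:**
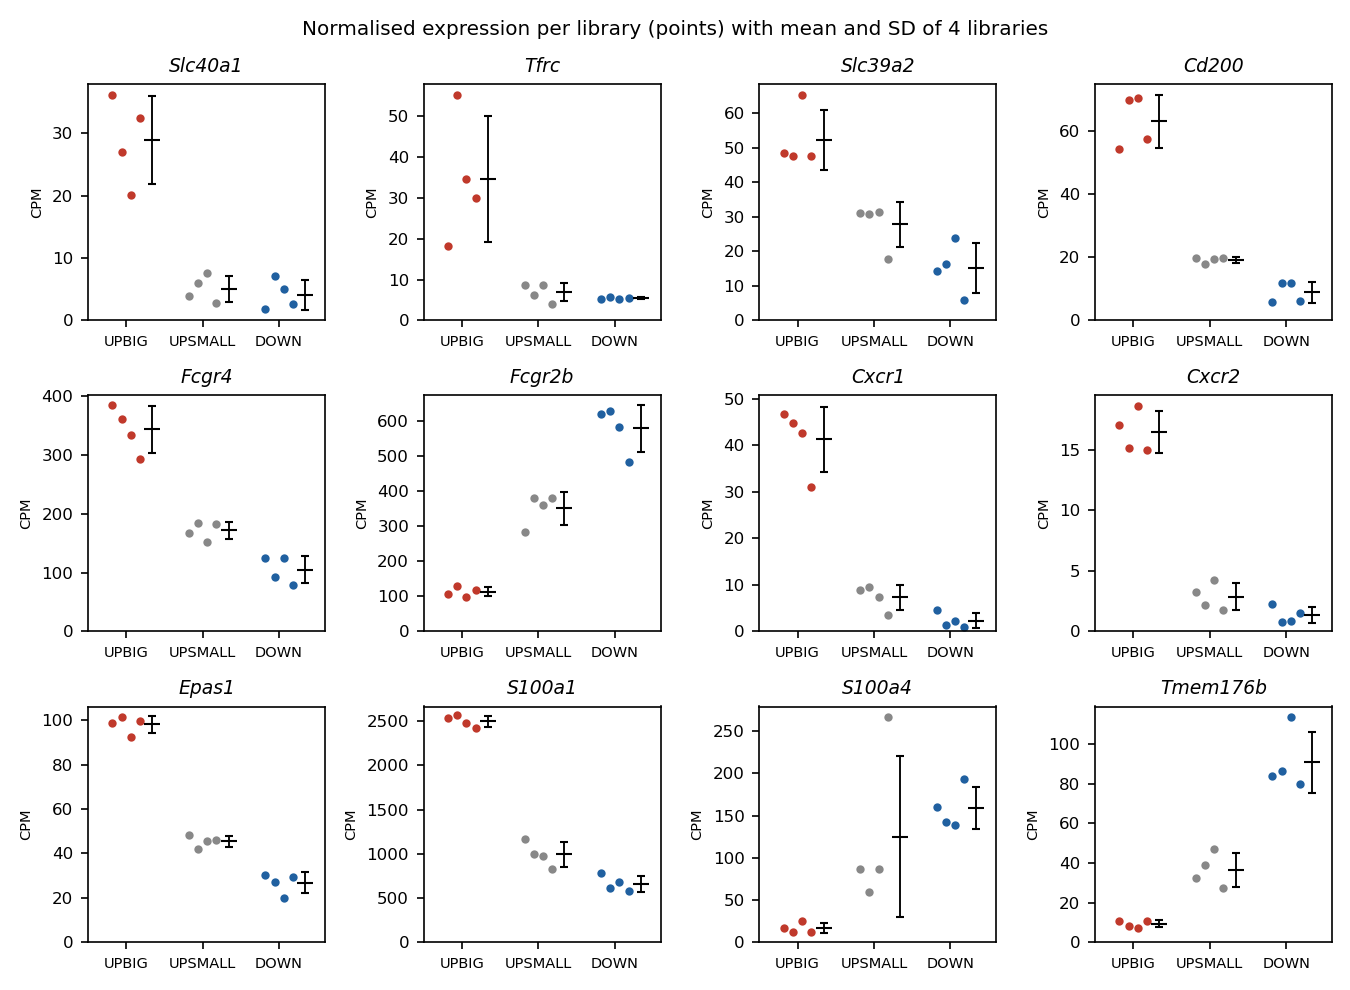
Points are libraries, with CPM on a linear axis from 0, and black marks give the mean and SD of 4 libraries beside each group. Slc40a1, Tfrc, Slc39a2, Cd200, Fcgr4, Cxcr1, Cxcr2, Epas1 and S100a1 are higher in every UPBIG library than in every DOWN library, and Fcgr2b, S100a4 and Tmem176b lower. For Slc40a1, Tfrc, Cd200, Fcgr2b, S100a4 and Tmem176b the choice of the largest changes required this.

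Of 45 tested enzymes of glutathione metabolism and detoxification, 19 rose and 2 fell. Their median log2 fold change was 0.45, and 0.12 with library totals alone. Akr1b8, an aldose reductase that clears reactive aldehydes, stood at 26.1, 21.6, 20.9 and 27.0 CPM in UPBIG and at 3.20, 5.73, 5.07 and 4.95 in DOWN, at 2.33 ± 0.37 (adjusted p = 0.000487). Mgst2, a membrane-bound glutathione transferase, stood at 22.2, 30.7, 30.5 and 38.4 CPM in UPBIG and at 10.1, 8.76, 8.11 and 7.73 in DOWN, at 1.81 ± 0.20. No library of 1 group reached the range of the other. Gsr, which regenerates reduced glutathione, rose by 0.97 ± 0.17, and the transferase Gstm5 by 0.89 ± 0.16. The enzymes that remove superoxide and hydrogen peroxide, Sod1 and Cat, rose by 0.78 ± 0.12 and 0.70 ± 0.11. Gstm2 stood at 2.56 ± 0.67 (adjusted p = 0.0239), but the call ended without UPBIG replicate 2 or 3 or DOWN replicate 1 or 3 (adjusted p up to 0.0576), and DOWN replicate 4 held 0.141 CPM. The glutathione transferases of this family are close in sequence, so the split of reads between them is uncertain. Of those that fell, Prdx4, a peroxiredoxin of the endoplasmic reticulum, stood at -0.53 ± 0.14, and its call ended without UPBIG replicate 2 (adjusted p = 0.0583). The other, Cyp2s1, had 1 count over the UPBIG libraries and is not read further.

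Fc receptors moved in opposite directions along a shared stretch of chromosome 1. Fcgr4, an activating receptor for IgG (chr1:171018920-171029761, mm10, plus strand), stood at 386, 361, 335 and 293 CPM in UPBIG and at 124, 92.4, 126 and 79.1 in DOWN, at 1.71 ± 0.14 (adjusted p = 1.11e-07). Fcgr2b, the inhibitory receptor for IgG (chr1:170958617-170976547, minus strand), stood at 106, 128, 99.2 and 117 CPM in UPBIG and at 620, 629, 582 and 484 in DOWN, at -2.36 ± 0.13 (adjusted p = 3.78e-10). Every UPBIG library was above every DOWN library for the activating receptor and below every DOWN library for the inhibitory one, and UPSMALL stood between them at 172 and 351 CPM. Of 20 Fc receptor and signalling genes tested, 2 rose and 5 fell (median -0.02). The other rise was the kinase Syk, at 0.41, which was not called with library totals alone, nor without UPBIG replicate 1 or 2 or DOWN replicate 2, 3 or 4 (adjusted p up to 0.13). The kinase Fyn fell by 1.56 ± 0.20. Plcg2, at -0.43, was not called without UPBIG replicate 1 or DOWN replicate 2, and Fcrls, at -1.55, without UPBIG replicate 1, 2 or 3 or DOWN replicate 2 or 4 (adjusted p up to 0.0761 and 0.074).

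Inhibitory and paired receptors changed in both directions, with 8 of 48 tested higher and 13 lower (median -0.10). While Cd200 rose, its receptor Cd200r1 fell, from 149, 123, 143 and 119 CPM in DOWN to 95.5, 98.5, 80.2 and 84.0 in UPBIG, at -0.58 ± 0.12 (adjusted p = 0.00201). Pilra, an inhibitory receptor, stood at 38.8, 33.6, 31.1 and 46.9 CPM in UPBIG and at 142, 136, 120 and 126 in DOWN, at -1.80 ± 0.15. The amplifier of inflammation Trem1 fell by 1.42 ± 0.35 and the inhibitory lectin Siglece by 1.21 ± 0.27. On the other side Tyrobp, the signalling adaptor that many activating receptors share, rose by 0.66 ± 0.12, Lilra5 by 1.10 ± 0.16 and Cd300a by 1.05 ± 0.24. Cd300c and Cd300ld of the same gene cluster rose by 1.93 ± 0.51 and 0.83 ± 0.21.

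Of 24 C-type lectins tested, 8 fell, 1 rose and 15 were not called (median -0.33). The falls included Klrk1 and Klrb1b (-1.95), receptors also of NK and T cells, whose markers fell in 10 of 13 cases; the part of such cells was not tested. Clec4n, which encodes dectin-2, a receptor for fungal mannans, stood at 670, 714, 792 and 788 CPM in UPBIG and at 1586, 1699, 1697 and 1613 in DOWN, at -1.15 ± 0.16 (adjusted p = 4.88e-05). Its relatives Clec4a2 and Clec4d on the same lectin cluster fell by 1.21 ± 0.17 and 0.68 ± 0.16, and Clec4b1 by 1.23 ± 0.26. The exception was Clec1b, the receptor for podoplanin, at 30.0, 49.4, 31.9 and 40.03 CPM in UPBIG against 9.18, 10.1, 13.1 and 11.4 in DOWN, a rise of 1.79 ± 0.18. Pattern recognition genes fell in 8 of 42 cases and rose in 2, against 8.48% and 9.03% of all tested genes. Tlr2, the receptor for bacterial lipoproteins, fell by 0.87 ± 0.15 and its adaptor Myd88 by 0.74 ± 0.16. The rises, Aim2 and Mavs at 0.98 and 0.58, were not called with library totals alone. The call of Aim2 also ended without any 1 of the UPBIG libraries or without DOWN replicate 3 or 4 (adjusted p up to 0.0833), and that of Mavs without UPBIG replicate 2 or 4 or DOWN replicate 1 or 2 (adjusted p up to 0.11). Of 20 complement genes 2 rose, near the share of all genes, and 4 fell. Cfb, the protease of the alternative pathway, stood at 47.0, 67.7, 75.3 and 51.4 CPM in UPBIG and at 78.0, 134, 122 and 93.6 in DOWN, at -0.83 ± 0.19. The falls also included C1qb and C1qc of the classical pathway. The rises were the integrin Itgax (0.51 ± 0.10) and Cd59a, a membrane inhibitor of complement (1.05 ± 0.29), both not called with library totals alone.

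Chemokine receptors changed in both directions. Cxcr2, a receptor for neutrophil-attracting chemokines, stood at 17.1, 15.1, 18.6 and 15 CPM in UPBIG and at 2.25, 0.770, 0.862 and 1.51 in DOWN, at 3.59 ± 0.34 (adjusted p = 5.82e-07). Its neighbour on chromosome 1 and closest relative Cxcr1 stood at 46.6, 44.8, 42.6 and 31.1 CPM in UPBIG and at 4.63, 1.35, 2.18 and 1.04 in DOWN, at 4.15 ± 0.43, and at 4.77 without DOWN replicate 1. Rufy4 (chr1:74125541-74148223), Cxcr2 (chr1:74153989-74161246) and Cxcr1 (chr1:74191785-74194631) follow one another along chromosome 1, and all of them rose. In contrast Ccr1, a receptor for inflammatory CC chemokines, stood at 87.5, 57.4, 57.5 and 33.5 CPM in UPBIG and at 158, 176, 172 and 98.6 in DOWN, at -1.36 ± 0.29. The membrane-bound chemokine Cxcl16 fell by 1.13 ± 0.13. The list of chemokines and their receptors does not hold Cxcr1. Of its 25 tested members 2 rose and 6 fell (median -0.76). Its rise beside Cxcr2, the chemokine Ccl6, was small (0.64 ± 0.16) and was not called with library totals alone.

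Because Cxcr2 also marks neutrophils, the markers of that cell were read beside it. Of 12 listed, 10 were in the table, 7 were tested, and 2 rose (Cxcr2 and S100a8) while Mmp8 fell. Their summed level was 391 to 435 CPM in UPBIG and 162 to 200 in DOWN, and S100a8 made up most of it. S100a8 stood at 354, 374, 387 and 385 CPM in UPBIG and at 117, 138, 146 and 112 in DOWN, a rise of 1.55 ± 0.12. Its binding partner S100a9 stood at 0.00, 5.38, 3.40 and 1.43 CPM in UPBIG and at 4.20, 9.34, 12.4 and 3.11 in DOWN and was not called (adjusted p = 0.427). The neutrophil genes Mpo, Camp and Retnlg had 0, 0 and 7 counts over the UPBIG libraries and 0, 12 and 6 over the DOWN libraries, and Csf3r stood at 9.49 to 12.7 CPM in UPBIG and 9.39 to 15.2 in DOWN. Mmp8, the neutrophil collagenase, stood at 5.98 to 12.7 CPM in UPBIG and 20.4 to 26.3 in DOWN, a fall of 1.26 ± 0.20. Mpo, Camp and Retnlg were at or near 0 in both groups, but Ltf and Lcn2 of the same list were detected in every library. Ltf stood at 0.872 to 5.80 CPM in UPBIG and 0.963 to 3.59 in DOWN. Lcn2 stood at 0.818 to 3.17 CPM in UPBIG and 0.254 to 2.02 in DOWN. The part of neutrophils in the Cxcr1, Cxcr2 and S100a8 values was not tested.

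G protein-coupled receptors for lipid mediators, purines and other ligands fell in 19 of 47 cases and rose in 6, with a median of -0.69. Receptors for chemoattractants were among the falls. Fpr2, which senses formyl peptides and resolvins, stood at 7.10, 15.8, 23.9 and 14.6 CPM in UPBIG and at 33.4, 40.1, 50 and 44.5 in DOWN, at -1.45 ± 0.27 (adjusted p = 0.00169). The complement receptors C3ar1 and C5ar1 fell by 0.97 ± 0.21 and 0.87 ± 0.16. Cysltr1, the receptor for cysteinyl leukotrienes, stood at 3.05, 4.18, 3.98 and 7.23 CPM in UPBIG and at 14.8, 14.8, 10.1 and 11.1 in DOWN, at -1.46 ± 0.25. Gpr84, a receptor for medium-chain fatty acids, stood at 0.00 to 0.410 CPM in UPBIG and 1.67 to 4.72 in DOWN, at -3.72 ± 0.64. Of the rises, the adhesion receptor Adgrl2 stood at 1.29 ± 0.23. P2ry2, a receptor for extracellular nucleotides, stood at 1.02 ± 0.27 and was not called with library totals alone.

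Of 35 tested inhibitors that limit cytokine and MAP kinase signalling, 11 fell, 3 rose and 21 were not called (median -0.47). Nfkbie, an inhibitor of NF-κB, stood at 2.12, 2.63, 4.57 and 2.25 CPM in UPBIG and at 8.48, 13.4, 16.4 and 17.9 in DOWN, at -2.27 ± 0.31 (adjusted p = 4.34e-05), and its relative Nfkbia fell by 0.69 ± 0.17. Cish and Socs2, which cytokine receptors induce through STAT factors, fell by 1.76 ± 0.31 and 1.34 ± 0.16, and their relative Socs3 fell too. Dusp5, a phosphatase of nuclear ERK, went the other way, at 53.6, 44.6, 35.6 and 23.9 CPM in UPBIG against 15.6, 8.57, 12.7 and 15.3 in DOWN, a rise of 1.59 ± 0.33. Rasa4 and Dusp3 were also called higher, at 0.62 and 0.46. Both were not called with library totals alone, and in addition Rasa4 not without UPBIG replicate 2 or DOWN replicate 1, and Dusp3 not without DOWN replicate 3.

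Among 26 immediate early and AP-1 genes, 6 fell and 2 rose (median -0.95). Ier2 fell by 1.32 ± 0.32, Fosl2 by 0.95 ± 0.20 and Btg1, an antiproliferative gene, by 1.04 ± 0.23. The nuclear receptor Nr4a3, an early response gene, stood at 0.125 to 0.598 CPM in UPBIG and at 3.98 to 16.6 in DOWN, at -4.64 ± 0.65. Klf2 rose by 1.20 ± 0.28, while its relative Klf4 fell by 0.98 ± 0.24. The second rise, Jund at 0.91 ± 0.27, was not called with library totals alone, with limma-voom, nor without any 1 of UPBIG replicates 1 and 3 and DOWN replicates 1, 2 and 4 (adjusted p up to 0.109).

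Transcription factors of the myeloid lineage fell in 25 of 77 cases and rose in 3 (median -0.35). Epas1, the hypoxia-inducible factor HIF-2α, stood at 98.9, 101, 92.3 and 99.6 CPM in UPBIG and at 30.2, 27.4, 19.98 and 29.6 in DOWN, a rise of 1.87 ± 0.13 (adjusted p = 9.77e-09). Its relative Hif1a moved the other way, from 87.9, 86.1, 102 and 70.0 CPM in DOWN to 56.8, 60.1, 62.0 and 46.8 in UPBIG, at -0.62 ± 0.13 (adjusted p = 0.00228). The 2 factors of the hypoxia response thus changed in opposite directions without overlap between the groups. Bhlhe41, a repressor that maintains alveolar macrophage identity, rose by 0.91 ± 0.16. Among the falls, Cebpa and Runx1, regulators of myeloid development, stood at -0.67 ± 0.16 and -0.59 ± 0.13, Mef2c at -0.68 ± 0.18 and the ETS repressor Etv3 at -1.18 ± 0.25. Ahr, the aryl hydrocarbon receptor, stood at -2.58 ± 0.55 and at -3.30 without UPBIG replicate 3. Csf1r, the receptor for M-CSF, stood at 118, 123, 119 and 126 CPM in UPBIG and at 220, 218, 203 and 205 in DOWN, at -0.80 ± 0.09 (adjusted p = 7.58e-06). Its ligand gene Csf1 rose by 1.35 ± 0.33 from a low level, 1.69 to 2.22 CPM in DOWN and 4.43 to 6.27 in UPBIG.

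**Figure D4:**
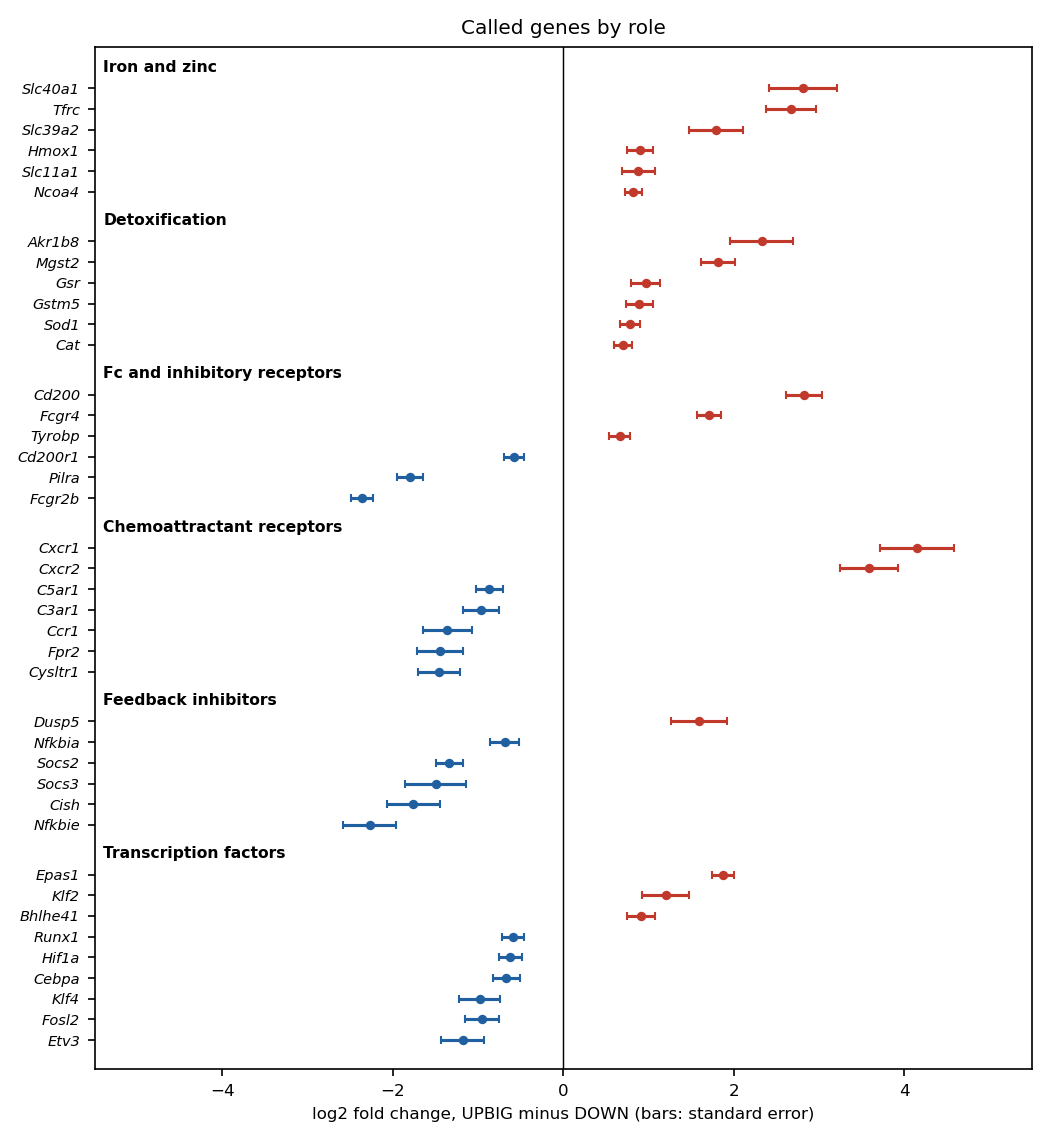
Points are log2 fold changes (UPBIG minus DOWN) of called genes named in the text, with their standard errors as bars, ordered by role. Red points rose and blue points fell. Cxcr1 and Cxcr2 rose, and the other chemoattractant receptors plotted fell.

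Cytokines and growth factors rose in 8 and fell in 3 of 32 cases (median -0.29). Il18bp, the decoy that neutralises interleukin-18, stood at 166, 192, 146 and 137 CPM in UPBIG and at 29.4, 48.8, 54.7 and 27.8 in DOWN, at 1.99 ± 0.37 (adjusted p = 0.0036). Vegfb rose by 0.97 ± 0.18. Tnfsf13b, the B cell factor BAFF, stood at -1.25 ± 0.33 and was not called without DOWN replicate 3. The other falls were Ltb and Lif, both at few counts. Il1b was not called: it stood at 26.2, 16.6, 52.4 and 10.0 CPM in UPBIG and at 137, 80.4, 147 and 26.8 in DOWN, at -1.89 ± 0.66 (adjusted p = 0.0827). It was called by DESeq2, with library totals alone, and without UPBIG replicate 3 or DOWN replicate 4 (with adjusted p down to 0.0387 among the latter). Tgfb1 stood at 1.64 to 2.21 CPM in UPBIG and 1.79 to 4.09 in DOWN, also without a call (adjusted p = 0.322). Vegfa, with 11 counts over UPBIG and 101 over DOWN, was not called (adjusted p = 0.0624), and its value of -2.82 became -1.23 without DOWN replicate 3. A call appeared with DESeq2, with library totals alone, without the filter on low counts and without DOWN replicate 4. Receptors for cytokines and growth factors fell in 11 and rose in 6 of 47 cases (median -0.24), with Tnfrsf26, a member of the TNF receptor family, higher by 1.34 ± 0.18.

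Enzymes of leukotriene and prostaglandin metabolism changed in both directions. Alox5 (adjusted p = 0.454, though 0.018 with library totals alone) and Ltc4s (adjusted p = 0.657) were not called. Dpep2, the dipeptidase that converts leukotriene D4 to E4, stood at 105, 111, 90.5 and 84.3 CPM in UPBIG and at 206, 213, 178 and 166 in DOWN, at -0.97 ± 0.12 (adjusted p = 1.44e-05). Alox5ap was lower by a small amount (-0.36), and was not called without UPBIG replicate 1 or 2 or DOWN replicate 1, 3 or 4 (adjusted p up to 0.0891). Hpgd, which inactivates prostaglandins, stood at 22.6, 9.86, 21.97 and 19.0 CPM in UPBIG and at 61.6, 47.4, 90.7 and 69.3 in DOWN, at -1.87 ± 0.23. Hpgds, the synthase of prostaglandin D2, rose by 0.85 ± 0.18, and Ephx1, an epoxide hydrolase, by 1.22 ± 0.27. In all, 2 of 20 rose and 3 fell, against background shares of 9.03% and 8.48%.

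Genes of phospholipid and sphingolipid metabolism rose in 9 and fell in 4 of 41 cases, with a median of 0.12 (-0.20 when scaled to library totals). Sgms2, a sphingomyelin synthase, stood at 15.6, 20.7, 28.1 and 14.3 CPM in UPBIG and at 5.97, 5.30, 10.5 and 3.49 in DOWN, at 1.64 ± 0.29. Pcyt2, the rate-setting enzyme of phosphatidylethanolamine synthesis, fell from 28.9, 23.3, 28.8 and 18.8 CPM in DOWN to 8.04, 10.9, 11.2 and 11.4 in UPBIG, at -1.26 ± 0.18. Pcyt1a, its counterpart for phosphatidylcholine, was called higher at 0.82 ± 0.23, but not with library totals alone, nor without UPBIG replicate 2 or DOWN replicate 1 or 4 (with adjusted p up to 0.0603). The other falls were the ceramide synthases Cers5, by 0.85 ± 0.13, and Cers6 at -0.46, with Sphk1 at -2.66. The calls of the last 2 ended without several single libraries, UPBIG replicates 1 and 2 among them for both (adjusted p up to 0.0934 and 0.0773), and Sphk1 became -3.85 without UPBIG replicate 3.

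Secreted proteases and their inhibitors changed in both directions, with 12 of 40 higher and 9 lower (median 0.09, and -0.24 with library totals alone). The antiprotease Slpi, which protects the airway from neutrophil elastase, stood at 1009, 880, 1207 and 881 CPM in UPBIG and at 216, 202, 332 and 223 in DOWN, at 2.03 ± 0.15 (adjusted p = 3.36e-08). Serpinb6a, an intracellular serpin, rose by 1.49 ± 0.11. Adam9, a membrane sheddase, fell by 0.67 ± 0.14. Mmp12, the macrophage elastase, stood at 227, 221, 251 and 287 CPM in UPBIG and at 276, 477, 323 and 247 in DOWN. These groups overlapped and Mmp12 was not called (adjusted p = 0.496). Among matrix genes, 6 of 28 rose and 3 fell (median 0.10, and -0.21 with library totals alone). Sdc3, a heparan sulfate proteoglycan, stood at 249, 254, 195 and 181 CPM in UPBIG and at 42.9, 49.4, 51.6 and 45.5 in DOWN, at 2.21 ± 0.13 (adjusted p = 9.84e-10). Tgm2, which crosslinks matrix proteins, rose by 1.52 ± 0.20 and the collagen-modifying enzyme Plod1 by 0.79 ± 0.14, while Emilin2 and Cspg4 fell by 1.28 ± 0.18 and 1.07 ± 0.28.

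S100 proteins split in direction. S100a1 stood at 2530, 2563, 2477 and 2421 CPM in UPBIG and at 785, 612, 680 and 581 in DOWN, at 1.91 ± 0.13 (adjusted p = 5.03e-09). S100a11 rose by 0.99 ± 0.14. S100a6 fell from 545, 449, 541 and 472 CPM in DOWN to 131, 132, 224 and 103 in UPBIG, at -1.77 ± 0.24, in the same direction as S100a4. All of these genes lie on chromosome 3. With annexins and tetraspanins, 8 of 32 rose and 4 fell (median 0.11, and -0.21 with library totals alone). The other falls were Anxa3 at -0.46, not called without UPBIG replicate 1, 2 or 3 or DOWN replicate 1, 2 or 3, and Tspan33. In the Ms4a and Tmem176 families 7 of 12 tested fell and 1 rose (median -1.21). Besides those already named, Ms4a6b stood at 9.66, 8.13, 8.61 and 12.0 CPM in UPBIG and at 38.6, 32.4, 39.6 and 26.9 in DOWN, at -1.84 ± 0.21, and Ms4a6d fell by 0.50 ± 0.13. Ms4a8a was the rise, at 0.63 ± 0.14, not called with library totals alone.

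Adhesion genes changed in both directions. Cdh1, the epithelial cadherin that alveolar macrophages also express, stood at 1.93, 1.55, 1.99 and 1.77 CPM in UPBIG and at 13.4, 5.83, 6.44 and 9.62 in DOWN, at -2.28 ± 0.36 (adjusted p = 0.000166). Of the markers of club, ciliated and alveolar type 1 cells, which hold Cdh1, 1 of 11 tested rose and 3 fell (median 0.34), and their summed level was 81.0 to 332 CPM in UPBIG and 186 to 345 in DOWN. The rise was Scgb1a1, at 212 CPM in UPBIG replicate 2, and Epcam was not called (adjusted p = 0.131). Tppp3 stood at 15.96 to 97.97 CPM in UPBIG and 108.8 to 260.1 in DOWN, and Hopx at 31.78 to 37.32 and 40.83 to 64.76. Of the 11 markers, 6 had a log2 fold change above 0. Of 4 alveolar type 2 cell markers tested, 2 fell and none rose. Napsa of that list stood at 16.57 to 36.58 CPM in UPBIG and 80.06 to 102 in DOWN. Sftpc and Sftpa1 of the same list went the other way, with 746 and 68 counts over UPBIG and 80 and 11 over DOWN. Most of the Sftpc counts lay in UPBIG replicate 3, at 42.7 CPM, where the rest of UPBIG held 0.00 to 1.02. The part of epithelial cells in the Cdh1 value was not tested. Of 31 junction and adhesion genes, 4 rose and 7 fell (median -0.02). L1cam fell by 1.13 ± 0.21 and Emb by 0.84 ± 0.12, while Lgals1, a galectin, rose by 0.65 ± 0.10 and Vcam1 by 2.82 ± 0.44 from a low level. Of 16 integrins 5 fell and 1 rose (median -0.41), with Itga5 and Itga4, fibronectin-binding chains, at -0.81 ± 0.20 and -0.59 ± 0.13. Itgal, at -0.45, was not called without UPBIG replicate 2 or 4 or DOWN replicate 1 or 3. Itgb2, the rise, stood at 0.35 and was not called with library totals alone or without UPBIG replicate 3. Actin genes went both ways, 10 of 60 up and 9 down (median 0.13, and -0.19 with library totals alone). Myo5a and Actn1 rose by 0.78 ± 0.13 and 0.93 ± 0.18, and Coro1a, which coats the phagosome, fell by 1.20 ± 0.19. Of the intermediate filaments, the keratin Krt19 rose by 1.86 ± 0.39, and the tubulin Tuba1a fell by 1.42 ± 0.23.

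Autophagy genes rose in 8 of 44 cases and 1, Vmp1, fell by 0.71 ± 0.15; the list's median of 0.17 became -0.16 with library totals alone. Gabarapl1, which tags autophagosomes, stood at 71.3, 62.2, 62.8 and 54.5 CPM in UPBIG and at 32.3, 30.7, 26.4 and 28.3 in DOWN, at 1.09 ± 0.13, and the cargo receptor Sqstm1 rose by 0.76 ± 0.13. Mcoln3, a cation channel of endosomes and lysosomes, stood at 164, 184, 185 and 170 CPM in UPBIG and at 69.5, 66.8, 59.2 and 62.7 in DOWN, at 1.44 ± 0.12. Atp6v0d2, a subunit of the proton pump, rose by 1.06 ± 0.14. Among trafficking genes 11 of 56 rose and 4 fell (median 0.09, and -0.23 with library totals alone). Rilpl2 and Vamp5 rose by 1.20 ± 0.18 and 1.12 ± 0.18. Dysf, which reseals damaged membranes, stood at 3.82 ± 0.87 and at 5.18 without DOWN replicate 4.

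Transporters of nutrients changed in both directions. Slc15a3, a lysosomal transporter of peptides and histidine, stood at 173, 171, 137 and 146 CPM in UPBIG and at 78.7, 94.0, 79.5 and 73.1 in DOWN, at 0.95 ± 0.14. Slc6a6, the taurine transporter, rose by 0.85 ± 0.10, while Slc1a5 and Slc38a2, which carry glutamine, fell by 1.15 ± 0.16 and 0.91 ± 0.17. Mfsd12, a lysosomal transporter, rose by 1.08 ± 0.17. The lactate dehydrogenase subunit Ldhb stood at 21.2, 30.0, 27.1 and 38.4 CPM in UPBIG and at 66.8, 76.6, 60.8 and 75.2 in DOWN, at -1.26 ± 0.17, and the salvage kinase Uck2 fell by 1.07 ± 0.19. Glul, glutamine synthetase, rose by 0.83 ± 0.13.

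MHC class I genes split between loci. H2-T22 stood at 159, 190, 186 and 154 CPM in UPBIG and at 68.7, 70.0, 80.8 and 65.0 in DOWN, at 1.28 ± 0.13 (adjusted p = 1.37e-06), and the classical gene H2-D1 rose by 0.80 ± 0.20. H2-Q7 and H2-Q6 fell by 1.43 ± 0.32 and 1.18 ± 0.26. These genes are near-identical copies in part, so the division of reads between them is uncertain. Of 27 genes tested, 6 rose and 3 fell; the third fall, the activator Nlrc5, at -0.79, was not called without UPBIG replicate 1, 2 or 4 or DOWN replicate 2 or 3. Interferon-stimulated genes fell in 9 of 64 cases and rose in 2. Slfn1, a Schlafen gene, stood at 3.74, 3.47, 3.93 and 4.36 CPM in UPBIG and at 19.1, 17.8, 25.2 and 17.4 in DOWN, at -2.36 ± 0.26, and the RNA sensor Oas2 fell by 1.17 ± 0.23. The rises were Isg15, at 1.44, not called without UPBIG replicate 1 (0.96, adjusted p = 0.103) or with limma-voom, and Ifi27, at 0.42, not called with library totals alone, nor without UPBIG replicate 2, 3 or 4 or DOWN replicate 2, 3 or 4 (adjusted p up to 0.099).

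For lists of basic cell machinery the background was again 9.03% called higher and 8.48% called lower. The rises among proteasome and cell cycle genes lay near the first of these shares. None of 33 proteasome genes fell and 3 rose, of 38 ribosome biogenesis genes 1 fell and none rose, and of 29 nuclear receptors and coregulators 2 fell and none rose. Of 55 cell cycle genes, 5 rose and 2 fell. The rises included the cyclin Ccnd2, at 50.03, 48.1, 33.5 and 44.0 CPM in UPBIG against 9.83, 10.0, 18.5 and 11.9 in DOWN (1.80 ± 0.20, adjusted p = 2.99e-06), and Cdkn1a, the cell cycle inhibitor p21, at 160, 195, 160 and 144 against 83.4, 81.5, 115 and 59.3 (0.96 ± 0.16, adjusted p = 0.00029). A cyclin and an inhibitor were thus both higher. Cdk1 was called at 0.96, but not with library totals alone, nor without UPBIG replicate 1 or DOWN replicate 1 or 3, and it overlapped between the groups. Ccng1 and Cdk6, at 0.58 and 0.55, were not called with library totals alone. Among chromatin regulators 1 of 45 rose and 4 fell. The rise was the DNA methyltransferase Dnmt3a, from 25.6, 28.9, 26.1 and 27.8 CPM in DOWN to 48.5, 50.9, 58.8 and 62.4 in UPBIG, at 1.03 ± 0.14, and the histone demethylase Kdm7a fell by 1.03 ± 0.16. Egr2, an early response gene of alveolar macrophages, stood at 14.5 to 27.9 CPM in UPBIG and 14.6 to 24.1 in DOWN and was not called (adjusted p = 0.795).

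**Figure D5:**
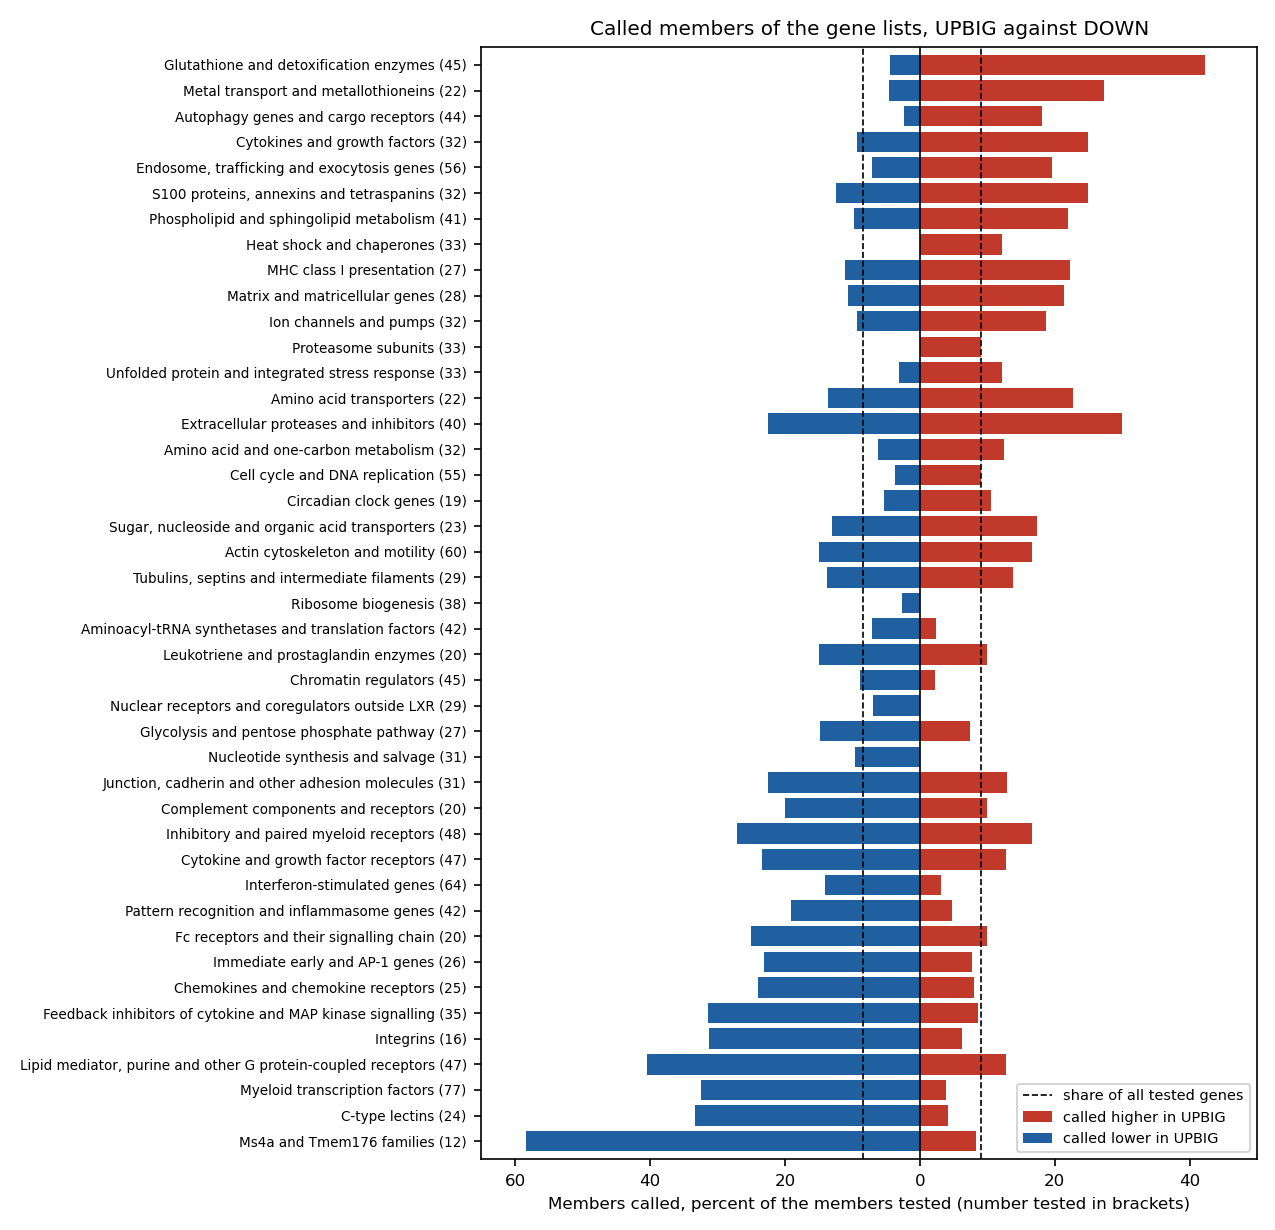
For each gene list, bars give the percent of tested members called higher (red, to the right) and lower (blue, to the left) in UPBIG, with the number tested in brackets. Dashed lines mark the shares over all tested genes, 9.03% and 8.48%. Glutathione and detoxification enzymes stand at the top, and Ms4a and Tmem176 genes, C-type lectins and myeloid transcription factors at the bottom.

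Across the 43 lists, the median log2 fold change was above 0 in 18 and, with library totals alone, in 1, the glutathione and detoxification enzymes. That scaling lowers nearly all values by a like amount, so small medians above 0 had to change sign. UPSMALL, which entered the scaling, the filter and the estimate of the spread but not the contrast, lay between the others in mean log2 CPM for 89.7% of genes called higher and 90.0% of those called lower, against 50.2% of all tested genes. The call itself favoured this, since called genes were picked for a gap between UPBIG and DOWN. The shares of called and of all tested genes are therefore not like for like. On a scale from 0 at DOWN to 1 at UPBIG the median position of UPSMALL was 0.39 among rises and 0.41 among falls. Marco, a scavenger receptor of alveolar macrophages, was an exception. It stood at 22.1, 38.8, 44.0 and 24.1 CPM in UPBIG and 4.07, 11.4, 8.42 and 8.11 in DOWN, a rise of 2.01 ± 0.33, but its mean of 44.1 in UPSMALL was above both.

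The promoter windows ran from 250 bases before to 50 bases after each RefSeq start, and 9350 of the tested genes had at least 1 window. The letters AGGAAGT, the core of PU.1 sites, were found on either strand in 9.88% of the windows of all tested genes, 10.4% of those of genes called higher and 13.3% of those of genes called lower. AP-1 letters, TGAGTCA, were found in 3.74%, 4.29% and 5.04% in the same order. TCACGTG, the E-box of lysosomal MiT/TFE factors, was found in 6.05%, 7.62% and 5.53%, and in 4.2% of the windows of genes that rose by more than 2-fold. CCAAT was found in 37.9%, 37.0% and 37.6% in the first order. In the printed stretches the PU.1 letters begin 24 bases before the start of Fcgr4 and 74 before that of Slfn1, both on the opposite strand, and AP-1 letters begin 41 bases before the start of Rufy4 and, on the opposite strand, 52 before that of Mgst2. These motifs do not overlap one another there. A match describes these letters only, and genes with the same letters moved in both directions.

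Reads from overlapping genes on opposite strands cannot be told apart without the strand setting. Of the genes chosen for naming, 26 share exon bases with an opposite-strand gene that held at least 5% of their counts, among them Sdc3, Serpinb6a, Il18bp, Tgm2, Stab1, Slc15a3, Mfsd12, Adgrl2, Tnfrsf26, Ccnd2, Coro1a, Myd88 and Tmem176b with Tmem176a.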

How the data were processed

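RNA of sorted lavage macrophages was copied by SMART-Seq HT and sequenced. The authors deposited expected counts per gene, made with STAR and RSEM on mm10 per the submitters' processing notes; for versions, annotation release and strandedness, none is stated in the labels. Of the values, 13.8% were not whole, and all were rounded to whole numbers. Symbols came from GENCODE M21, which matched 26808 of 26855 identifiers. The test was edgeR 4.0.16 (R 4.3.3), quasi-likelihood, robust, with TMM scaling and filterByExpr, fitted to all 12 libraries, for the contrast UPBIG minus DOWN, with Benjamini-Hochberg adjustment over 12625 genes at 0.05. CPM used TMM-scaled totals, and standard errors were taken as the absolute log2 fold change over the square root of F. The script was tested on simulated data.

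Alternatives were DESeq2 1.42.0, limma-voom (limma 3.58.1), other scalings and filters, a minimum fold of 1.5, the 8 libraries alone, a replicate block and each library left out. Named genes were the 15 largest non-overlapping rises and falls (mean at least 8 CPM) and up to 3 called members per list and direction (at least 5 CPM), both outside the set-aside lists and a further list of single genes that holds Cxcr1 and Ccr7, the largest changes also outside cell type markers, ribosomal protein, mitochondrial and unnamed genes, plus 12 fixed genes; 55 further genes were chosen after their values were seen, as were single genes given to complete a short count. The comparison and its 43 lists were chosen with earlier results of these data known. Figures used matplotlib 3.10.9. A few genes of these lists are counted but not reported here by name.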

Additional observations from a re-analysis of the deposited data

Results flagged for a closer look

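In each group of 4 libraries, a named gene was set apart when its highest or lowest library lay further from the rest than Dixon's 95% critical value allows, as a share of the group's range. Of 544 groups tested, 25 were set apart, and chance flags about 1 in 20 groups. Values are CPM, with the range of the other 3 libraries. A library stood above the others for Lars2 in UPBIG replicate 1 (829 against 191 to 268), Slc39a2 in UPBIG replicate 3 (65.3 against 47.6 to 48.4), Trpm2 in DOWN replicate 1 (9.61 against 5.71 to 5.92), Glul in UPBIG replicate 1 (170 against 113 to 116) and Ephx1 in DOWN replicate 2 (32.8 against 17.5 to 19.7). The same held for H2-Q6 in UPBIG replicate 3 (23.2 against 11.4 to 12.1), Slpi in DOWN replicate 3 (332 against 202 to 223), Adam9 in UPBIG replicate 3 (62.6 against 49.1 to 51.1), Plod1 in UPBIG replicate 1 (52.3 against 38.61 to 39.96) and Rilpl2 in UPBIG replicate 2 (173 against 121 to 128). A high library was also found for Dnajc3 in DOWN replicate 3 (127 against 79.0 to 84.6), Dnajb6 in UPBIG replicate 3 (149 against 132 to 133), Psmd2 in DOWN replicate 2 (81.1 against 68.4 to 69.6), Cdk1 in DOWN replicate 4 (26.9 against 10.2 to 12.0) and Csnk1e in DOWN replicate 1 (17.5 against 13.4 to 14.0). Further high libraries were those of Vegfa in DOWN replicate 3 (3.75 against 0.141 to 0.563) and CT010467.1 in UPBIG replicate 1 (14600 against 6266 to 7664). A library stood below the others for Slc6a6 in UPBIG replicate 4 (262 against 302 to 309), Slc7a2 in DOWN replicate 4 (101 against 121 to 125), Pcyt2 in UPBIG replicate 1 (8.04 against 10.9 to 11.4), Cd300a in DOWN replicate 4 (61.6 against 90.9 to 95.5) and Vmp1 in UPBIG replicate 1 (51.6 against 61.0 to 62.8). Low libraries were also found for Psmd8 in DOWN replicate 4 (204 against 252 to 254), Psmb6 in DOWN replicate 4 (354 against 464 to 487) and H2-D1 in DOWN replicate 4 (1639 against 2390 to 2503).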

How the results depend on the processing

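The number of genes called stayed within 1.5 times 2210, in both directions, with DESeq2, limma-voom, DESeq2-style size factors, no filter on low counts, the stricter filter, the 8 libraries alone and the replicate block. With library totals alone 3755 genes were called, 518 higher and 3237 lower, and 1588 of the 2210 were among them. With a minimum fold of 1.5, 597 were called, 301 higher and 296 lower, of which 574 exceeded 2-fold. The stricter filter left 558 genes called by more than 2-fold against 912, with fewer genes tested. Leaving out 1 library at a time gave 1777 to 2421 called, 954 to 1296 higher, 815 to 1125 lower and 828 to 961 over 2-fold. Whether the replicate numbers pair the libraries was not settled, since differently numbered libraries were not compared. Same-numbered UPBIG and DOWN libraries had deviations from their group means correlated at 0.038 to 0.134. The replicate block gave 2607 calls, 1330 higher and 1277 lower, more than the 2210 without it. Ltc4s and Egr2, not called, changed sign to -0.20 and -0.16 with library totals alone. Of 264 named genes called, 104 kept the call under every alternative run. The minimum fold ended 159 calls (75 by that alone), library totals alone 46, leaving out 1 library 57, no filter 7, the 8 libraries alone 6, limma-voom 4, the block 1 (Ccl22) and DESeq2 0. Apart from the filters, whose construction changes the genes tested, the cause was not tested. Few counts limit the precision for genes near 0 in 1 group.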
